A study of Homo sapiens with 36 samples.

Results

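The 34 genes described here belong to the antioxidant program of the transcription factor NRF2 (gene NFE2L2) or to the enzyme systems it feeds, and each was found in the deposited expression table through its Entrez Gene number. All 34 of 34 genes had a row among the 21599 rows of the table, and all 34 passed the filter on low values. The table covers 36 RNA-seq libraries of THP-1, a human monocytic leukaemia line that PMA turns into adherent macrophage-like cells, in 12 groups of 3 libraries. Wild-type (WT) cells and cells with a knockout of IRG1 (KO) were compared, and both received 100 nM PMA for 72 h before a vehicle control or stimulation, meaning LPS together with IFN-γ at 200 ng/mL each, for 6, 12 or 24 h. The IRG1 gene, now ACOD1, encodes the enzyme that produces itaconate in activated macrophages. The labels do not say how the knockout was made, whether it is 1 clone, or whether replicates were separate cultures, so the p-values speak only of how far these libraries scatter.

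NRF2 is held in the cytosol by KEAP1, an adaptor that sends it for ubiquitination and breakdown. Oxidants and electrophiles, itaconate and its derivatives among the proposed ones, modify cysteines of KEAP1, after which NRF2 builds up, pairs with a small MAF protein and binds antioxidant response elements. BACH1 occupies the same elements as a repressor, and the autophagy receptor SQSTM1 (p62) can draw KEAP1 away. NRF2 targets make and recycle glutathione and thioredoxin, break down heme, supply NADPH and detoxify quinones, while SOD2 is better known as an NF-κB target. These are mRNA values, and NRF2 is controlled largely at the protein level.

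ACOD1 in the vehicle libraries read 0.41, 0.19, 0.19 (6 h), 0.43, 0.26, 0.12 (12 h) and 0.59, 0.86, 0.32 (24 h) in WT and 0.04, 0.12, 0.00 (6 h), 0.03, 0.33, 0.01 (12 h) and 0.03, 0.32, 0.03 (24 h) in KO cells. With stimulation ACOD1 read 12.76, 11.49, 11.11 (6 h), 11.97, 11.80, 11.00 (12 h) and 10.95, 10.96, 9.20 (24 h) in WT and 8.35, 8.31, 8.80 (6 h), 7.98, 10.22, 8.49 (12 h) and 8.31, 9.78, 8.60 (24 h) in KO cells, so its transcript was present in the KO and lower at 6 and 12 h. The KO minus WT change with stimulation was -3.31, -2.69 and -1.48 (SE 0.47, adjusted p = 3.74e-05, 8.70e-04 and 0.0597). The labels do not give the deleted stretch, so the transcript does not check the loss of the enzyme. Values are log2 expression as deposited. Read depth is unknown. The mean correlation of a library with the others of its group was 0.839 for KO stimulated 6 h replicate 2, 0.87 for WT stimulated 24 h replicate 3 and 0.89 to 0.964 for the other 34 libraries. Of 12 macrophage markers all had a row and reached the expression minimum in at least 1 group, and of 25 markers of other cell types 16 had a row. Rise, fall and call refer to an adjusted p below 0.05 in limma, and SE is the standard error. Where 3 changes or p-values stand together they belong to 6, 12 and 24 h, and values by library are in replicate order. A number in brackets behind an omitted replicate is the log2 change that remained. A paired fit is one with the replicate number as a block.

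Stimulation moved the 34 genes in both directions at once. In WT cells 6 rose and 7 fell at 6 h, where limma called 36% of all 21232 tested rows (15.1% higher, 20.9% lower). At 12 h 7 rose and 10 fell, beside 38.5% of rows (16.8% higher, 21.7% lower), and at 24 h 9 rose and 12 fell, beside 46.4% (20.2% higher, 26.1% lower). In KO cells 6 rose and 10 fell at 6 h, beside 38.7% of rows (16.2% higher, 22.5% lower). At 12 h 7 rose and 8 fell, beside 35% (15.5% higher, 19.5% lower), and at 24 h 11 rose and 10 fell, beside 38.9% (17.3% higher, 21.6% lower). The called shares of the 34 genes, 38.2%, 50% and 61.8% in WT and 47.1%, 44.1% and 61.8% in KO cells, were thus near the share of all rows at 6 h in WT cells and above it at the other times. Their median change was -0.18, -0.02 and -0.07 in WT and -0.06, 0.03 and 0.44 in KO cells, beside -0.17, -0.18 and -0.11 and -0.20, -0.12 and -0.08 over all rows.

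BLVRA, GCLM, TXN, SOD2 and NFE2L2 rose at all 3 times in both genotypes, and BLVRB, GPX1, PRDX3, TKT and CAT fell at all 3 times in both. Of the calls at 6 h, 5 of the 6 rises in WT were called as rises in KO cells too (83.3% of each list), and all 7 falls in WT were among the 10 in KO cells. At 24 h the genotypes shared 8 rises (88.9% of those in WT, 72.7% of those in KO) and 9 falls (75% and 90%). Among the macrophage markers, 1 rose and 5 fell in WT and 2 rose and 4 fell in KO cells at 6 h, and 1 rose and 8 fell in WT and 2 rose and 4 fell in KO cells at 24 h. Fewer cells of a type and less RNA per cell cannot be told apart in bulk RNA, and the part of such shifts in the changes of the antioxidant genes was not tested. Over all comparisons 129 calls were made on the 34 genes, of which 86 held under every alternative and without any 1 library of the groups compared.

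**Figure D1:**
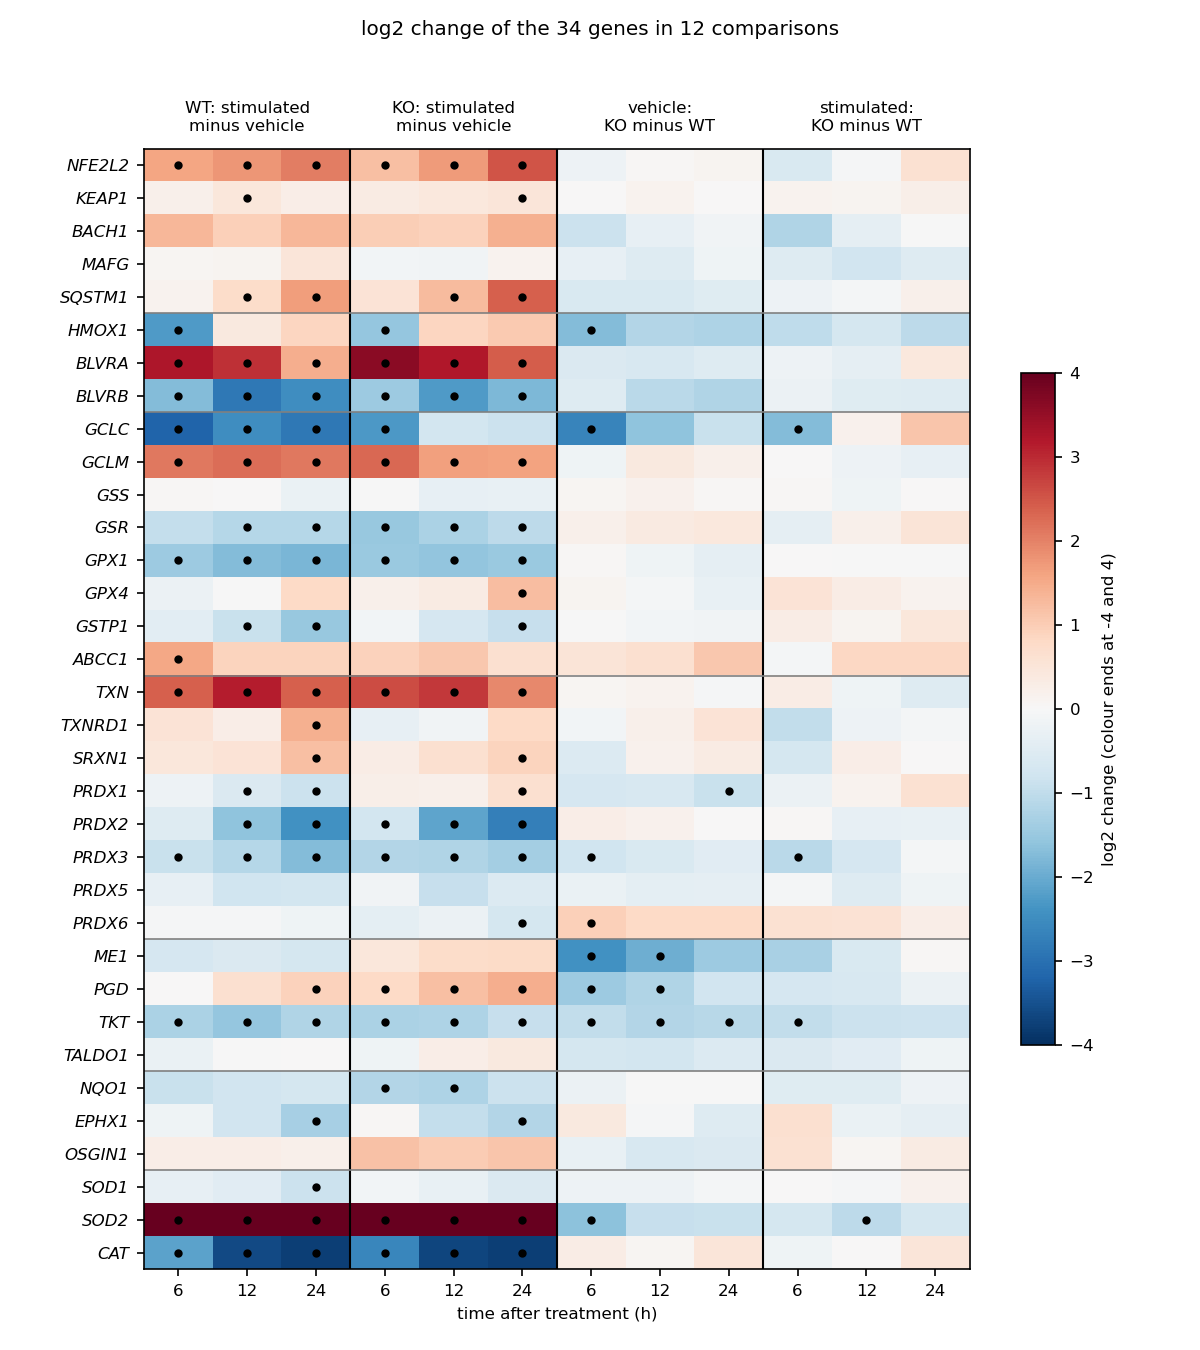
Log2 change of each gene (rows, grouped by role) in 12 comparisons (columns, with time in h), with red for higher and blue for lower. A black dot marks a limma adjusted p below 0.05. The colour scale ends at -4 and 4, which SOD2 exceeds in both stimulation blocks, while the dots in the KO minus WT blocks are few.

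Among the regulators NFE2L2 and SQSTM1 rose, while no change of KEAP1 exceeded 0.49. NFE2L2 in WT vehicle libraries read 8.39, 8.68, 8.12 (6 h), 8.52, 8.26, 8.33 (12 h) and 8.63, 8.43, 8.03 (24 h). NFE2L2 in stimulated WT libraries read 10.34, 10.26, 9.37 (6 h), 10.24, 10.24, 9.97 (12 h) and 10.66, 11.13, 9.39 (24 h). Every stimulated WT library was above every vehicle library of its time. NFE2L2 in KO vehicle libraries read 8.48, 7.85, 8.25 (6 h), 8.31, 8.53, 8.41 (12 h) and 8.32, 8.67, 8.44 (24 h). NFE2L2 in stimulated KO libraries read 9.98, 8.09, 10.09 (6 h), 10.05, 10.13, 10.15 (12 h) and 10.96, 11.26, 10.77 (24 h). KO stimulated 6 h replicate 2 (8.09) fell among the vehicle values, and all other stimulated KO libraries were above them. Log2 changes of NFE2L2 at the 3 times were 1.59, 1.78 and 2.03 in WT cells (SE 0.37, adjusted p = 0.0013, 4.16e-04 and 6.50e-05) and 1.20, 1.69 and 2.52 in KO cells (SE 0.37, adjusted p = 0.0121, 7.37e-04 and 4.16e-06). The NRF2 transcript was thus 4.09-fold and 5.73-fold higher at 24 h in WT and KO cells. The NFE2L2 call in KO cells at 6 h was lost without stimulated replicate 1 (0.90), stimulated replicate 3 (0.85) or vehicle replicate 2 (1.03) and in a fit of only the libraries compared.

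KEAP1, the adaptor that marks NRF2 for breakdown, was one of the steadiest of the 34 genes. KEAP1 in WT vehicle libraries read 7.48, 7.58, 7.48 (6 h), 7.28, 7.35, 7.41 (12 h) and 7.34, 7.32, 7.40 (24 h). KEAP1 in stimulated WT libraries read 7.67, 7.67, 7.79 (6 h), 7.84, 7.37, 8.15 (12 h) and 7.73, 7.56, 7.60 (24 h). KEAP1 in KO vehicle libraries read 7.34, 7.72, 7.55 (6 h), 7.59, 7.29, 7.60 (12 h) and 7.32, 7.51, 7.32 (24 h). KEAP1 in stimulated KO libraries read 7.72, 8.05, 7.79 (6 h), 8.06, 7.69, 7.98 (12 h) and 8.01, 7.65, 7.94 (24 h). The whole span over 36 libraries was 7.28 to 8.15, and the genotypes overlapped. Log2 changes of KEAP1 at the 3 times were 0.20, 0.44 and 0.27 in WT cells (SE 0.17, adjusted p = 0.3898, 0.0394 and 0.1930) and 0.31, 0.42 and 0.49 in KO cells (SE 0.17, adjusted p = 0.1487, 0.0561 and 0.0239). In WT cells the 12 h call was lost without any one of stimulated replicates 1 or 3 and vehicle replicates 1, 2 or 3 (0.26 to 0.48) and in a fit of only the libraries compared. In KO cells the 24 h call was lost without any one of stimulated replicates 1 or 3 and vehicle replicates 1 or 3 (0.42 to 0.45), and the 12 h change passed without stimulated replicate 2 (0.53) and in a paired fit (adjusted p = 0.0399 with a replicate block, 0.0364 to 0.2156 over all alternatives).

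SQSTM1, the autophagy receptor that binds KEAP1, rose late. SQSTM1 in WT vehicle libraries read 9.43, 9.17, 9.60 (6 h), 9.36, 8.72, 9.50 (12 h) and 9.18, 8.58, 8.89 (24 h). SQSTM1 in stimulated WT libraries read 9.44, 9.26, 9.93 (6 h), 9.75, 9.21, 10.78 (12 h) and 10.61, 10.54, 10.56 (24 h). The WT groups overlapped at 6 and 12 h and lay apart at 24 h. SQSTM1 in KO vehicle libraries read 8.45, 8.88, 9.08 (6 h), 8.54, 8.31, 8.86 (12 h) and 8.21, 8.35, 8.59 (24 h). SQSTM1 in stimulated KO libraries read 9.21, 9.33, 9.50 (6 h), 9.73, 9.59, 10.21 (12 h) and 10.49, 11.04, 10.76 (24 h). In KO cells the stimulated values were above the vehicle values at each time. Log2 changes of SQSTM1 at the 3 times were 0.15, 0.72 and 1.69 in WT cells (SE 0.28, adjusted p = 0.7322, 0.0432 and 1.87e-05) and 0.54, 1.27 and 2.38 in KO cells (SE 0.28, adjusted p = 0.1313, 7.65e-04 and 1.02e-07). The WT call at 12 h was lost without any one of stimulated replicates 1 or 3 and vehicle replicates 1 or 2 (0.29 to 0.81) and in a fit of only the libraries compared.

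BACH1, the repressor at the same DNA elements, spanned 2.73 to 7.59 and was called in no comparison. Log2 changes of BACH1 at the 3 times were 1.34, 0.95 and 1.31 in WT cells (SE 0.69, adjusted p = 0.1344, 0.2893 and 0.1210) and 0.98, 0.93 and 1.41 in KO cells (SE 0.69, adjusted p = 0.2757, 0.3179 and 0.1086). Stimulated BACH1 passed without stimulated replicate 3 (1.95) in WT cells at 6 h, without stimulated replicate 3 (1.99) at 24 h and without stimulated replicate 2 (2.24) in KO cells at 6 h. MAFG, a small MAF partner of NRF2, spanned 6.68 to 8.32. Log2 changes of MAFG at the 3 times were 0.07, 0.11 and 0.49 in WT cells (SE 0.23, adjusted p = 0.8627, 0.7336 and 0.0892) and -0.11, -0.15 and 0.14 in KO cells (SE 0.23, adjusted p = 0.7501, 0.6538 and 0.6768). In WT cells at 24 h MAFG passed without stimulated replicate 3 (0.66).

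The heme genes did not move together. HMOX1, heme oxygenase 1, opens the heme ring to release iron, carbon monoxide and biliverdin, and it was lower at 6 h only. HMOX1 in WT vehicle libraries read 11.41, 12.23, 11.96 (6 h), 10.54, 11.27, 10.71 (12 h) and 10.09, 10.31, 9.99 (24 h). HMOX1 in stimulated WT libraries read 9.38, 9.37, 10.09 (6 h), 11.01, 10.54, 12.13 (12 h) and 10.95, 9.93, 12.08 (24 h). All stimulated WT values were below the vehicle values at 6 h, and the groups overlapped at 12 and 24 h. HMOX1 in KO vehicle libraries read 9.39, 10.62, 10.43 (6 h), 9.21, 10.02, 9.77 (12 h) and 8.61, 8.77, 9.28 (24 h). HMOX1 in stimulated KO libraries read 7.86, 9.07, 8.90 (6 h), 10.15, 10.75, 10.66 (12 h) and 10.20, 9.26, 10.37 (24 h). The KO groups were likewise apart at 6 h, with the stimulated libraries lower, and at 12 h the stimulated ones were higher. Log2 changes of HMOX1 at the 3 times were -2.25, 0.39 and 0.86 in WT cells (SE 0.44, adjusted p = 1.91e-04, 0.5139 and 0.1148) and -1.54, 0.86 and 1.06 in KO cells (SE 0.44, adjusted p = 0.0067, 0.1364 and 0.0586). At 6 h HMOX1 was 4.77-fold lower in WT and 2.9-fold lower in KO cells. The 6 h call in KO cells was lost without stimulated replicate 1 (-1.16). At 24 h HMOX1 passed without stimulated replicate 2 (1.38) in WT and without stimulated replicate 2 (1.40) in KO cells. Its adjusted p in KO cells at 24 h was 0.0264 with a replicate block and 0.0264 to 0.1964 over all alternatives.

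The biliverdin reductases BLVRA, which turns biliverdin into the antioxidant bilirubin, and BLVRB went in opposite directions. BLVRA in WT vehicle libraries read 5.98, 5.84, 6.77 (6 h), 6.08, 6.18, 6.68 (12 h) and 6.23, 6.20, 6.97 (24 h). BLVRA in stimulated WT libraries read 9.14, 9.57, 9.62 (6 h), 9.36, 8.66, 9.68 (12 h) and 8.05, 7.59, 8.16 (24 h). BLVRA in KO vehicle libraries read 5.08, 6.15, 5.65 (6 h), 5.56, 5.46, 5.99 (12 h) and 5.83, 5.93, 6.06 (24 h). Vehicle values stayed below 7 in both genotypes. BLVRA in stimulated KO libraries read 9.14, 9.38, 9.16 (6 h), 8.92, 8.58, 9.11 (12 h) and 8.51, 7.62, 8.91 (24 h). No vehicle library reached a stimulated one of its time. Log2 changes of BLVRA at the 3 times were 3.25, 2.92 and 1.47 in WT cells (SE 0.32, adjusted p = 3.65e-09, 2.78e-08 and 4.09e-04) and 3.60, 3.20 and 2.41 in KO cells (SE 0.32, adjusted p = 3.63e-10, 4.14e-09 and 6.09e-07). BLVRA was 9.49-fold and 12.2-fold higher at 6 h in WT and KO cells.

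BLVRB in WT vehicle libraries read 9.62, 8.78, 9.79 (6 h), 9.98, 8.76, 10.16 (12 h) and 10.26, 9.55, 10.61 (24 h). BLVRB in stimulated WT libraries read 7.66, 6.63, 8.71 (6 h), 6.34, 6.55, 7.41 (12 h) and 7.45, 7.55, 8.00 (24 h). All stimulated WT values were lower than the vehicle values. BLVRB in KO vehicle libraries read 8.16, 9.67, 8.85 (6 h), 8.22, 8.70, 8.73 (12 h) and 8.63, 9.07, 9.14 (24 h). BLVRB in stimulated KO libraries read 6.90, 8.38, 7.06 (6 h), 6.31, 6.08, 6.40 (12 h) and 7.02, 6.79, 7.66 (24 h). The KO libraries touched at 6 h, where stimulated replicate 2 (8.38) was above vehicle replicate 1 (8.16), and were apart later. Log2 changes of BLVRB at the 3 times were -1.73, -2.87 and -2.48 in WT cells (SE 0.46, adjusted p = 0.0039, 1.46e-05 and 7.04e-05) and -1.45, -2.28 and -1.79 in KO cells (SE 0.46, adjusted p = 0.0134, 2.69e-04 and 0.0026). The BLVRB call in WT cells at 6 h was lost without stimulated replicate 2 (-1.21). In KO cells that call was lost without stimulated replicate 1 (-1.17), stimulated replicate 3 (-1.25) or vehicle replicate 2 (-1.06) and in a fit of only the libraries compared.

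**Figure D2:**
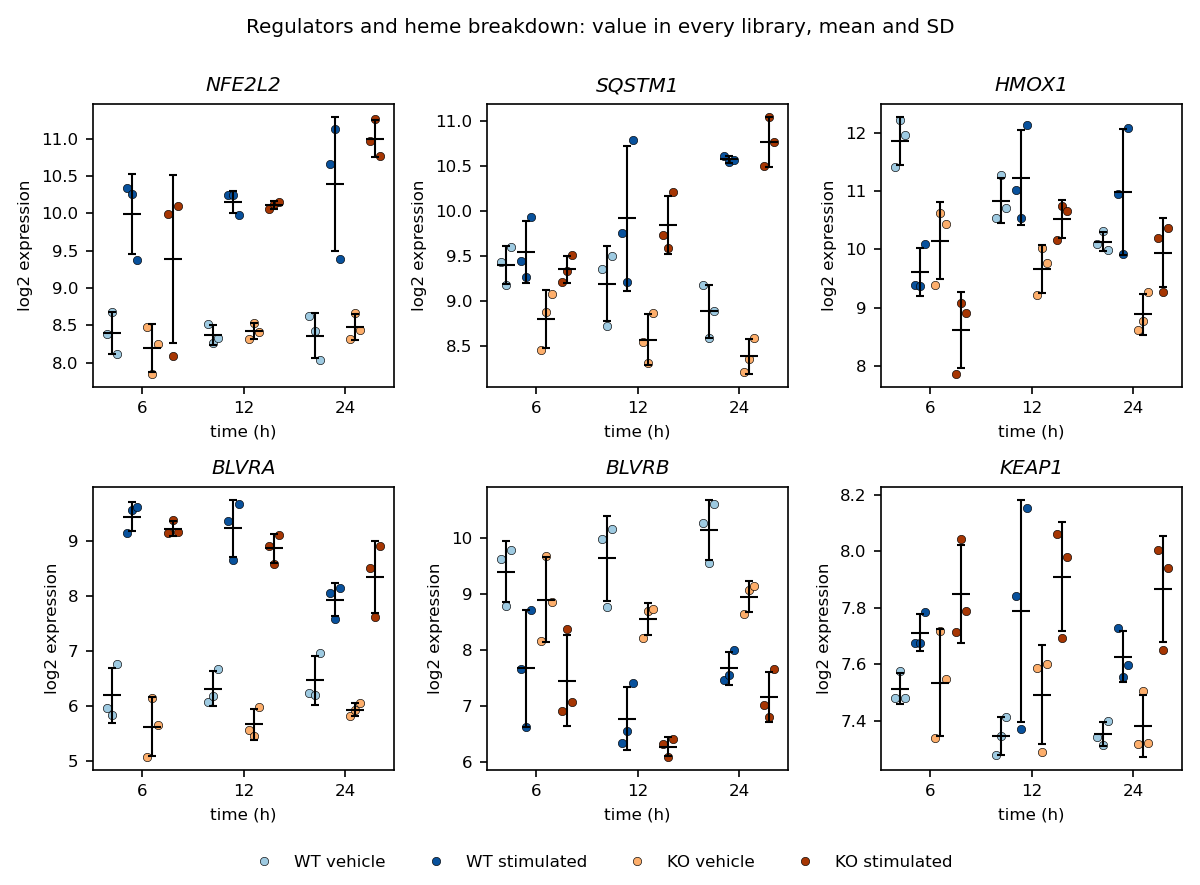
Log2 expression (y axis) against time in h (x axis) for 6 genes. Points are single libraries, the bar is the mean and the whiskers the SD (n = 3). NFE2L2, SQSTM1 and BLVRA rise with stimulation, BLVRB falls, HMOX1 falls at 6 h only, and KEAP1 stays between 7.28 and 8.15.

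Glutathione is made by glutamate-cysteine ligase, whose catalytic subunit is GCLC and whose modifier subunit is GCLM, and then by GSS. Both ligase subunits are textbook NRF2 targets, yet their transcripts moved in opposite directions here. Their promoters are shown because of this contrast. Each is the 250 bases before the start site on the gene's minus strand, read from RefSeq (GRCh38.p14), with capitals for the core of the antioxidant response element (TGACNNNGC on either strand). The GCLM bases lie at chr1:93909431-93909680 and those of GCLC at chr6:53545102-53545351.
GCLM: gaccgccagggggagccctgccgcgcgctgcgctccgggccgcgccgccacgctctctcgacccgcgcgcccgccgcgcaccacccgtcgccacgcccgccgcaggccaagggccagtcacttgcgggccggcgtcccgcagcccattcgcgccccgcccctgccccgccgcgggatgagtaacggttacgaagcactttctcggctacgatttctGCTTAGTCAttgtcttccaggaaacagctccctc
GCLC: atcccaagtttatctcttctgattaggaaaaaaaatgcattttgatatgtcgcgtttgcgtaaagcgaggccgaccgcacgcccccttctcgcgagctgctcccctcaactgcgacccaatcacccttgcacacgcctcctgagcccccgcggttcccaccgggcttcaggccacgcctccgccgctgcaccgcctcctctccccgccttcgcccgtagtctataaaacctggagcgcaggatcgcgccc
GCLM held 1 core, on the opposite strand with its nearest base 26 bases before the start, and these letters are not in the GCLC bases. Another motif searched, GAS (TTCNNNGAA), also matched in the GCLM bases, with its nearest base 12 bases before the start. It is not capitalised. Of the 34 genes 27 had a promoter window in the table, 300 bases long with 50 bases after the start, and 7 of the 27 held the core (EPHX1, GCLM, GSTP1, KEAP1, ME1, PGD and TXNRD1). Of all 27305 genes with a window 16.1% held the core. By window the members held it in 8 of 42, or 19%, beside 13.3% of all 35116 windows. With stimulation GCLM, KEAP1, PGD and TXNRD1 had calls for a rise, GSTP1 and EPHX1 had calls for a fall, and ME1 had none. A match is a description of letters and no evidence of binding. Bases outside these windows were not searched, so a window without the core does not mean that the gene lacks an antioxidant response element.

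GCLC in WT vehicle libraries read 10.93, 10.34, 10.25 (6 h), 11.06, 9.24, 10.71 (12 h) and 10.93, 9.57, 9.78 (24 h). GCLC in stimulated WT libraries read 7.40, 7.19, 7.34 (6 h), 7.91, 7.34, 8.29 (12 h) and 7.29, 6.87, 7.55 (24 h). GCLC was lower in every stimulated WT library than in any vehicle library of its time. GCLC in KO vehicle libraries read 7.57, 7.78, 8.28 (6 h), 8.85, 8.09, 9.27 (12 h) and 9.88, 8.17, 9.57 (24 h). GCLC in stimulated KO libraries read 5.88, 4.77, 6.06 (6 h), 8.33, 6.96, 8.74 (12 h) and 9.21, 6.83, 9.03 (24 h). In KO cells the groups were apart at 6 h and overlapped at 12 and 24 h, with replicate 2 the lowest in both groups at those times. Log2 changes of GCLC at the 3 times were -3.20, -2.49 and -2.86 in WT cells (SE 0.56, adjusted p = 4.42e-05, 7.92e-04 and 1.31e-04) and -2.31, -0.73 and -0.85 in KO cells (SE 0.56, adjusted p = 0.0016, 0.3348 and 0.2420). GCLC was 9.18-fold lower at 6 h in WT and 4.95-fold lower in KO cells.

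GCLM in WT vehicle libraries read 6.60, 6.53, 6.48 (6 h), 6.28, 5.98, 6.29 (12 h) and 6.10, 6.22, 5.99 (24 h). GCLM in stimulated WT libraries read 8.86, 8.03, 9.06 (6 h), 8.54, 7.53, 9.20 (12 h) and 8.52, 8.21, 7.94 (24 h). GCLM was higher in each stimulated WT library than in the vehicle libraries. GCLM in KO vehicle libraries read 6.31, 6.09, 6.70 (6 h), 6.48, 6.29, 6.92 (12 h) and 6.23, 6.24, 6.44 (24 h). GCLM in stimulated KO libraries read 9.09, 7.41, 9.50 (6 h), 8.09, 7.63, 8.94 (12 h) and 7.80, 8.21, 7.73 (24 h). The KO groups were apart as well, with the lowest stimulated value, 7.41, in replicate 2 at 6 h. Log2 changes of GCLM at the 3 times were 2.11, 2.24 and 2.12 in WT cells (SE 0.40, adjusted p = 1.15e-04, 5.77e-05 and 7.84e-05) and 2.30, 1.66 and 1.61 in KO cells (SE 0.40, adjusted p = 3.43e-05, 0.0016 and 0.0019). GCLM was 4.32-fold higher at 6 h in WT and 4.93-fold higher in KO cells, and these calls held in each of the 36 libraries left out and under every other alternative.

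**Figure D3:**
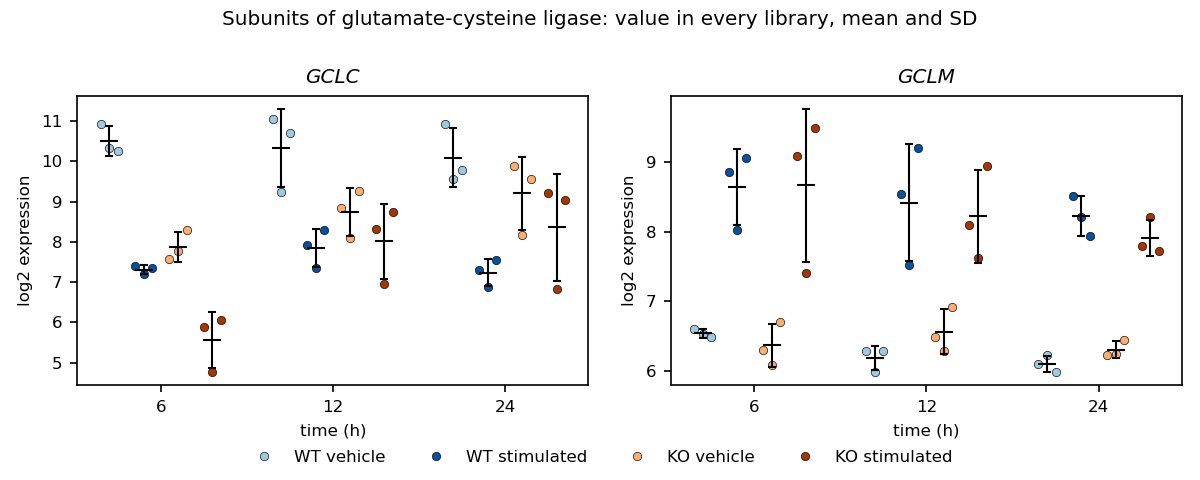
Log2 expression (y axis) of the ligase subunits against time in h (x axis). Points are libraries, the bar is the mean and the whiskers the SD (n = 3). GCLM is higher with stimulation in both genotypes, whereas GCLC is lower in WT cells at all times and in KO cells at 6 h.

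GSS, which joins glycine in the second step, was called nowhere. Log2 changes of GSS at the 3 times were 0.04, 0.02 and -0.25 in WT cells (SE 0.14, adjusted p = 0.8619, 0.9270 and 0.1395) and 0.00, -0.31 and -0.29 in KO cells (SE 0.14, adjusted p = 0.9827, 0.0802 and 0.0962). In KO cells at 24 h GSS passed without stimulated replicate 2 (-0.44). GSR, glutathione reductase, restores reduced glutathione with NADPH. GSR in WT vehicle libraries read 8.83, 8.96, 8.31 (6 h), 8.74, 8.94, 8.58 (12 h) and 8.94, 8.79, 8.17 (24 h). GSR in stimulated WT libraries read 8.01, 7.45, 7.80 (6 h), 8.01, 6.77, 8.12 (12 h) and 8.04, 7.04, 7.39 (24 h). Stimulated GSR values were below the vehicle values at each time in WT cells. GSR in KO vehicle libraries read 9.24, 8.54, 8.95 (6 h), 9.13, 9.12, 9.07 (12 h) and 9.18, 9.08, 8.87 (24 h). GSR in stimulated KO libraries read 7.97, 6.25, 7.95 (6 h), 8.16, 7.02, 8.36 (12 h) and 8.41, 7.23, 8.38 (24 h). The same held in KO cells, and replicate 2 was the lowest stimulated value at all 3 times. Log2 changes of GSR at the 3 times were -0.95, -1.13 and -1.14 in WT cells (SE 0.41, adjusted p = 0.0698, 0.0292 and 0.0225) and -1.52, -1.26 and -1.03 in KO cells (SE 0.41, adjusted p = 0.0039, 0.0165 and 0.0445). In WT cells at 6 h GSR passed in a paired fit (adjusted p = 0.0265 with a replicate block, 0.0233 to 0.1949 over all alternatives). GSR calls in WT cells were lost without stimulated replicate 2 (-0.69), vehicle replicate 1 (-1.13) or vehicle replicate 2 (-1.03) at 12 h and without any one of stimulated replicates 2 or 3 and vehicle replicates 1 or 2 (-1.09 to -0.92) at 24 h. Those in KO cells were lost without stimulated replicate 2 (-0.95) and in a fit of only the libraries compared at 6 h, without stimulated replicate 2 (-0.84) at 12 h and without any one of stimulated replicate 2 and vehicle replicates 1, 2 or 3 (-1.12 to -0.65) at 24 h.

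GPX1, the cytosolic glutathione peroxidase, fell at each time. GPX1 in WT vehicle libraries read 12.40, 12.15, 12.65 (6 h), 12.46, 12.39, 12.89 (12 h) and 12.52, 12.55, 12.80 (24 h). GPX1 in stimulated WT libraries read 10.71, 10.72, 11.41 (6 h), 10.63, 10.75, 11.11 (12 h) and 10.72, 10.83, 10.84 (24 h). The WT groups did not overlap. GPX1 in KO vehicle libraries read 12.20, 12.84, 12.35 (6 h), 12.35, 12.63, 12.21 (12 h) and 12.08, 12.45, 12.23 (24 h). GPX1 in stimulated KO libraries read 10.65, 11.79, 10.48 (6 h), 10.77, 10.73, 10.97 (12 h) and 10.81, 10.57, 10.95 (24 h). Nor did the KO groups, where the highest stimulated value was replicate 2 at 6 h (11.79). Log2 changes of GPX1 at the 3 times were -1.45, -1.75 and -1.82 in WT cells (SE 0.25, adjusted p = 3.92e-05, 2.95e-06 and 1.12e-06) and -1.49, -1.57 and -1.48 in KO cells (SE 0.25, adjusted p = 2.55e-05, 1.34e-05 and 2.92e-05). GPX4, which reduces lipid hydroperoxides, rose in KO cells at 24 h. Log2 changes of GPX4 at the 3 times were -0.24, -0.03 and 0.78 in WT cells (SE 0.36, adjusted p = 0.6477, 0.9646 and 0.0749) and 0.19, 0.34 and 1.24 in KO cells (SE 0.36, adjusted p = 0.7080, 0.4969 and 0.0069). In WT cells at 24 h GPX4 passed without vehicle replicate 3 (1.12) and in a paired fit (adjusted p = 0.0387 with a replicate block, 0.0202 to 0.3843 over all alternatives).

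GSTP1, a transferase that couples glutathione to electrophiles, fell late. GSTP1 in WT vehicle libraries read 9.32, 8.95, 9.58 (6 h), 9.41, 9.02, 9.61 (12 h) and 9.39, 9.22, 9.98 (24 h). GSTP1 in stimulated WT libraries read 8.74, 8.52, 9.28 (6 h), 8.36, 8.14, 8.86 (12 h) and 7.93, 7.50, 8.56 (24 h). The WT groups overlapped at 6 h only. GSTP1 in KO vehicle libraries read 9.14, 9.53, 9.11 (6 h), 9.37, 9.05, 9.28 (12 h) and 9.40, 9.32, 9.41 (24 h). GSTP1 in stimulated KO libraries read 8.82, 9.82, 8.78 (6 h), 8.83, 8.21, 8.67 (12 h) and 8.86, 7.59, 8.91 (24 h). In KO cells the groups overlapped at 6 h, where stimulated replicate 2 (9.82) was the highest of all 6, and were apart later. Log2 changes of GSTP1 at the 3 times were -0.44, -0.89 and -1.53 in WT cells (SE 0.32, adjusted p = 0.3118, 0.0296 and 3.22e-04) and -0.12, -0.67 and -0.92 in KO cells (SE 0.32, adjusted p = 0.7995, 0.1130 and 0.0240). GSTP1 lost its call without any one of stimulated replicates 1 or 2 and vehicle replicates 1 or 3 (-0.86 to -0.74) in WT cells at 12 h and without stimulated replicate 2 (-0.49), vehicle replicate 1 (-0.91) or vehicle replicate 3 (-0.91) and in a fit of only the libraries compared in KO cells at 24 h.

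ABCC1 exports glutathione conjugates. ABCC1 in WT vehicle libraries read 8.10, 7.31, 6.83 (6 h), 8.37, 7.02, 7.43 (12 h) and 8.17, 7.06, 6.49 (24 h). ABCC1 in stimulated WT libraries read 9.42, 9.01, 8.44 (6 h), 9.32, 7.69, 8.49 (12 h) and 9.27, 8.08, 7.08 (24 h). The WT groups were apart at 6 h only. ABCC1 in KO vehicle libraries read 8.65, 6.77, 8.39 (6 h), 8.45, 8.14, 8.13 (12 h) and 8.75, 7.89, 8.33 (24 h). ABCC1 in stimulated KO libraries read 9.86, 7.07, 9.68 (6 h), 9.46, 8.91, 9.61 (12 h) and 9.04, 8.97, 8.89 (24 h). KO stimulated 6 h replicate 2 (7.07) was far under the other replicates, and the KO groups were apart at 12 and 24 h. Log2 changes of ABCC1 at the 3 times were 1.54, 0.90 and 0.90 in WT cells (SE 0.60, adjusted p = 0.0462, 0.2498 and 0.2280) and 0.93, 1.08 and 0.65 in KO cells (SE 0.60, adjusted p = 0.2337, 0.1709 and 0.4247). The WT call at 6 h was lost without any one of stimulated replicates 1 or 2 and vehicle replicates 2 or 3 (1.25 to 1.52). In KO cells at 6 h ABCC1 passed without stimulated replicate 2 (1.83).

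TXN, the cytosolic thioredoxin, rose at each time in both genotypes. TXN in WT vehicle libraries read 9.38, 9.21, 9.50 (6 h), 9.20, 9.15, 9.47 (12 h) and 9.08, 9.35, 9.85 (24 h). TXN in stimulated WT libraries read 11.57, 11.06, 12.63 (6 h), 12.36, 11.08, 13.78 (12 h) and 11.68, 11.28, 12.53 (24 h). Every stimulated WT value exceeded 11, and the vehicle values stayed under 10. TXN in KO vehicle libraries read 9.16, 9.98, 9.19 (6 h), 9.37, 9.53, 9.37 (12 h) and 9.16, 9.63, 9.38 (24 h). TXN in stimulated KO libraries read 11.85, 12.17, 12.16 (6 h), 12.38, 11.61, 12.76 (12 h) and 11.53, 10.63, 11.81 (24 h). Stimulated and vehicle KO libraries were apart too. Log2 changes of TXN at the 3 times were 2.40, 3.13 and 2.40 in WT cells (SE 0.45, adjusted p = 1.10e-04, 2.86e-06 and 7.67e-05) and 2.62, 2.83 and 1.93 in KO cells (SE 0.45, adjusted p = 3.19e-05, 1.24e-05 and 0.0011). At 12 h TXN was 8.76-fold and 7.1-fold higher in WT and KO cells.

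TXNRD1 and SRXN1, the reductases of thioredoxin and of overoxidised peroxiredoxins, were called at 24 h. TXNRD1 in WT vehicle libraries read 8.28, 8.19, 7.60 (6 h), 8.30, 8.01, 7.80 (12 h) and 7.84, 7.68, 6.93 (24 h). TXNRD1 in stimulated WT libraries read 8.97, 8.49, 8.21 (6 h), 8.82, 7.54, 8.57 (12 h) and 9.64, 8.72, 8.38 (24 h). The WT groups were apart at 24 h only. TXNRD1 in KO vehicle libraries read 8.26, 7.36, 8.13 (6 h), 8.18, 8.24, 8.28 (12 h) and 8.26, 7.96, 7.90 (24 h). TXNRD1 in stimulated KO libraries read 8.08, 6.47, 8.18 (6 h), 8.19, 7.59, 8.53 (12 h) and 9.07, 8.66, 8.75 (24 h). KO stimulated 6 h replicate 2 was again the lowest, at 6.47. Log2 changes of TXNRD1 at the 3 times were 0.53, 0.28 and 1.43 in WT cells (SE 0.39, adjusted p = 0.2980, 0.6076 and 0.0033) and -0.34, -0.13 and 0.78 in KO cells (SE 0.39, adjusted p = 0.5187, 0.8270 and 0.1108). Some alternatives called TXNRD1 in KO cells at 24 h as well (adjusted p = 0.0499 with a replicate block, 0.0108 to 0.2533 over all alternatives).

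SRXN1 in WT vehicle libraries read 8.99, 8.74, 8.30 (6 h), 8.49, 7.75, 8.01 (12 h) and 8.27, 7.67, 7.21 (24 h). SRXN1 in stimulated WT libraries read 9.36, 9.00, 8.99 (6 h), 8.65, 7.86, 9.41 (12 h) and 9.28, 8.79, 8.68 (24 h). Stimulated SRXN1 values cleared the vehicle values at 24 h only. SRXN1 in KO vehicle libraries read 8.23, 7.82, 8.31 (6 h), 8.45, 8.07, 8.25 (12 h) and 8.13, 7.74, 8.24 (24 h). SRXN1 in stimulated KO libraries read 8.61, 7.73, 8.94 (6 h), 8.87, 8.45, 9.40 (12 h) and 9.11, 8.48, 9.21 (24 h). In KO cells they did so at 12 and 24 h. Log2 changes of SRXN1 at the 3 times were 0.44, 0.56 and 1.20 in WT cells (SE 0.34, adjusted p = 0.3350, 0.2036 and 0.0048) and 0.31, 0.65 and 0.89 in KO cells (SE 0.34, adjusted p = 0.5107, 0.1438 and 0.0375). SRXN1 in WT cells at 12 h passed without stimulated replicate 2 (0.95). Its KO call at 24 h was lost without any one of stimulated replicates 1 or 3 and vehicle replicates 1 or 2 (0.75 to 0.94).

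The peroxiredoxins remove hydrogen peroxide. PRDX2, a cytosolic one, fell further with time. PRDX2 in WT vehicle libraries read 8.75, 8.67, 9.41 (6 h), 8.70, 9.02, 9.14 (12 h) and 8.87, 9.09, 9.32 (24 h). PRDX2 in stimulated WT libraries read 8.20, 8.06, 8.98 (6 h), 7.33, 6.86, 7.86 (12 h) and 6.65, 6.35, 6.98 (24 h). The WT groups overlapped at 6 h and were apart at 12 and 24 h. PRDX2 in KO vehicle libraries read 9.11, 9.31, 9.25 (6 h), 9.18, 8.88, 9.32 (12 h) and 9.01, 8.99, 9.28 (24 h). PRDX2 in stimulated KO libraries read 8.32, 8.86, 8.24 (6 h), 7.38, 6.60, 7.08 (12 h) and 6.69, 5.94, 6.48 (24 h). The KO groups were apart at all times. Log2 changes of PRDX2 at the 3 times were -0.53, -1.60 and -2.44 in WT cells (SE 0.27, adjusted p = 0.1370, 3.58e-05 and 4.20e-08) and -0.75, -2.11 and -2.72 in KO cells (SE 0.27, adjusted p = 0.0313, 5.67e-07 and 5.36e-09). By 24 h PRDX2 was 5.41-fold lower in WT and 6.61-fold lower in KO cells. The KO call at 6 h was lost without any one of stimulated replicates 1 or 3 and vehicle replicates 2 or 3 (-0.74 to -0.63) and in a fit of only the libraries compared. In WT cells at 6 h PRDX2 passed without stimulated replicate 3 (-0.81).

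PRDX3, the mitochondrial peroxiredoxin, was lower at each time. PRDX3 in WT vehicle libraries read 10.08, 10.07, 9.74 (6 h), 10.27, 9.84, 10.05 (12 h) and 10.09, 10.25, 9.69 (24 h). PRDX3 in stimulated WT libraries read 9.13, 9.33, 8.73 (6 h), 8.85, 9.15, 8.69 (12 h) and 8.63, 8.51, 7.64 (24 h). No stimulated WT library reached a vehicle one. PRDX3 in KO vehicle libraries read 9.27, 8.96, 9.26 (6 h), 9.37, 9.53, 9.39 (12 h) and 9.54, 9.71, 9.39 (24 h). PRDX3 in stimulated KO libraries read 8.21, 7.57, 8.18 (6 h), 8.20, 8.18, 8.28 (12 h) and 8.26, 8.21, 8.11 (24 h). The same was true of the KO libraries. Log2 changes of PRDX3 at the 3 times were -0.90, -1.15 and -1.75 in WT cells (SE 0.22, adjusted p = 0.0018, 1.37e-04 and 2.59e-07) and -1.18, -1.21 and -1.35 in KO cells (SE 0.22, adjusted p = 9.38e-05, 7.31e-05 and 1.50e-05).

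PRDX1, another cytosolic form, was the one gene called in opposite directions in the genotypes. PRDX1 in WT vehicle libraries read 8.77, 9.01, 9.09 (6 h), 8.90, 8.87, 9.21 (12 h) and 9.03, 8.83, 9.30 (24 h). PRDX1 in stimulated WT libraries read 8.63, 8.74, 8.93 (6 h), 8.25, 8.81, 8.19 (12 h) and 8.35, 7.97, 8.30 (24 h). Stimulated WT values were below vehicle at 12 and 24 h. PRDX1 in KO vehicle libraries read 7.95, 8.69, 8.20 (6 h), 8.06, 8.66, 8.36 (12 h) and 7.90, 8.40, 8.21 (24 h). PRDX1 in stimulated KO libraries read 8.22, 8.81, 8.55 (6 h), 8.34, 9.01, 8.32 (12 h) and 8.82, 8.94, 8.64 (24 h). Stimulated KO values were above vehicle at 24 h. Log2 changes of PRDX1 at the 3 times were -0.19, -0.58 and -0.85 in WT cells (SE 0.23, adjusted p = 0.5448, 0.0439 and 0.0030) and 0.25, 0.20 and 0.63 in KO cells (SE 0.23, adjusted p = 0.4191, 0.5331 and 0.0267). PRDX1 calls were lost in WT cells at 12 h without any one of stimulated replicates 1 or 3 and vehicle replicates 1, 2 or 3 (-0.64 to -0.46) and in a fit of only the libraries compared, and in KO cells at 24 h without any one of stimulated replicates 1 or 2 and vehicle replicates 1 or 3 (0.50 to 0.65). PRDX5 spanned 6.19 to 8.40 and had no call. Log2 changes of PRDX5 at the 3 times were -0.33, -0.81 and -0.74 in WT cells (SE 0.42, adjusted p = 0.5753, 0.1271 and 0.1493) and -0.15, -0.92 and -0.54 in KO cells (SE 0.42, adjusted p = 0.8131, 0.0893 and 0.3238). In KO cells at 12 h PRDX5 passed in a paired fit (adjusted p = 0.0297 with a replicate block, 0.0112 to 0.2727 over all alternatives). PRDX6, which also reduces oxidised phospholipids, spanned 11.21 to 12.82. Log2 changes of PRDX6 at the 3 times were -0.04, -0.04 and -0.17 in WT cells (SE 0.27, adjusted p = 0.9373, 0.9207 and 0.6462) and -0.38, -0.24 and -0.70 in KO cells (SE 0.27, adjusted p = 0.2771, 0.5217 and 0.0397). The KO call at 24 h was lost without stimulated replicate 2 (-0.50), vehicle replicate 1 (-0.62) or vehicle replicate 3 (-0.57) and in a fit of only the libraries compared.

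Some of these genes have copies that share sequence. RefSeq lists numbered pseudogenes for 14 of the 34 genes, and those of 4 (GPX1, PRDX1, PRDX2 and PGD) have rows of their own in the table. Named antisense or divergent genes exist for 8. The counting and its use of strand are not given in the sources used here, so reads of copies and of antisense partners may have been split between rows.

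NADPH feeds both reductase systems. PGD, of the oxidative pentose phosphate pathway, rose at 24 h in both genotypes, and TKT, of its nonoxidative branch, fell at each time. PGD in WT vehicle libraries read 11.22, 11.02, 10.85 (6 h), 11.57, 10.66, 11.34 (12 h) and 11.14, 10.39, 10.76 (24 h). PGD in stimulated WT libraries read 11.32, 10.74, 11.09 (6 h), 12.05, 11.16, 12.24 (12 h) and 12.16, 11.39, 11.49 (24 h). In WT cells the groups were apart at 24 h only. PGD in KO vehicle libraries read 9.33, 9.82, 9.58 (6 h), 9.76, 10.18, 9.97 (12 h) and 10.06, 9.90, 10.03 (24 h). PGD in stimulated KO libraries read 10.34, 10.07, 10.68 (6 h), 11.11, 10.84, 11.60 (12 h) and 11.61, 10.86, 11.88 (24 h). KO vehicle values were the lowest of the 4 groups at each time, and the KO groups did not overlap. Log2 changes of PGD at the 3 times were 0.02, 0.63 and 0.92 in WT cells (SE 0.29, adjusted p = 0.9686, 0.0908 and 0.0117) and 0.79, 1.21 and 1.45 in KO cells (SE 0.29, adjusted p = 0.0336, 0.0018 and 2.42e-04). PGD lost its call in WT cells at 24 h without stimulated replicate 1 (0.68) or vehicle replicate 2 (0.73) and in a fit of only the libraries compared. It was lost in KO cells at 6 h without any one of stimulated replicates 1 or 3 and vehicle replicates 1 or 3 (0.63 to 0.80) and in a fit of only the libraries compared. At 12 h in WT cells PGD passed without stimulated replicate 2 (0.96) and in a paired fit (adjusted p = 0.0392 with a replicate block, 0.0145 to 0.3989 over all alternatives).

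TKT in WT vehicle libraries read 9.85, 9.58, 9.79 (6 h), 10.29, 9.29, 10.20 (12 h) and 10.10, 9.51, 10.11 (24 h). TKT in stimulated WT libraries read 8.42, 8.43, 8.56 (6 h), 8.31, 8.08, 8.70 (12 h) and 8.73, 8.09, 9.31 (24 h). In WT cells all stimulated values were below the vehicle values of their time. TKT in KO vehicle libraries read 8.45, 8.96, 8.80 (6 h), 8.60, 8.73, 8.90 (12 h) and 8.85, 8.65, 8.86 (24 h). TKT in stimulated KO libraries read 7.04, 8.02, 7.39 (6 h), 7.69, 7.20, 7.65 (12 h) and 7.99, 7.51, 8.14 (24 h). The KO groups were apart in the same direction, from a lower start. Log2 changes of TKT at the 3 times were -1.27, -1.56 and -1.20 in WT cells (SE 0.28, adjusted p = 7.46e-04, 6.90e-05 and 9.54e-04) and -1.26, -1.23 and -0.91 in KO cells (SE 0.28, adjusted p = 7.37e-04, 0.0010 and 0.0111). TKT in KO cells at 24 h was not called without stimulated replicate 2 (-0.72). TALDO1, transaldolase, spanned 9.95 to 11.89 and had no call. Log2 changes of TALDO1 at the 3 times were -0.28, -0.02 and 0.03 in WT cells (SE 0.31, adjusted p = 0.5210, 0.9677 and 0.9557) and -0.17, 0.27 and 0.39 in KO cells (SE 0.31, adjusted p = 0.7112, 0.5449 and 0.3501).

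ME1, the cytosolic malic enzyme, makes NADPH from malate. It did not pass the test with stimulation, but with vehicle it was called lower in KO than in WT cells at 6 and 12 h. The vehicle libraries of the genotypes were apart at 6 h only. ME1 in WT vehicle libraries read 9.63, 8.90, 9.15 (6 h), 9.47, 7.69, 9.29 (12 h) and 9.21, 7.42, 8.80 (24 h). ME1 in stimulated WT libraries read 8.70, 8.28, 8.67 (6 h), 7.85, 7.82, 9.00 (12 h) and 7.77, 7.25, 8.27 (24 h). In WT cells the stimulated values were below vehicle at 6 h and overlapped at 12 and 24 h. ME1 in KO vehicle libraries read 6.01, 6.62, 7.76 (6 h), 6.24, 6.62, 7.72 (12 h) and 6.91, 6.52, 7.67 (24 h). ME1 in stimulated KO libraries read 7.05, 6.64, 8.07 (6 h), 7.22, 7.12, 8.48 (12 h) and 7.91, 6.90, 8.58 (24 h). In KO cells they overlapped at each time. Log2 changes of ME1 at the 3 times were -0.68, -0.59 and -0.72 in WT cells (SE 0.55, adjusted p = 0.3636, 0.4223 and 0.3026) and 0.46, 0.74 and 0.76 in KO cells (SE 0.55, adjusted p = 0.5509, 0.3203 and 0.2929). The 250 bases before its start (chr6:83431052-83431301, minus strand, GRCh38.p14, RefSeq) are shown because ME1 had the largest KO minus WT change among the genes with a core, again in capitals, with its nearest base 129 bases before the start.
ME1: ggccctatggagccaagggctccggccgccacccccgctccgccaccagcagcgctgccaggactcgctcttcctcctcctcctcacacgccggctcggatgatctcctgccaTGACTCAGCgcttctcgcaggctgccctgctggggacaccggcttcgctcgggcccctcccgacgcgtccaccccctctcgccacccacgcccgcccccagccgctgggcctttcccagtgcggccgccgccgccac

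NQO1, the quinone reductase often read as the marker of NRF2 activity, had no rise. NQO1 in WT vehicle libraries read 9.06, 8.48, 9.51 (6 h), 9.26, 8.39, 9.74 (12 h) and 8.79, 8.31, 9.28 (24 h). NQO1 in stimulated WT libraries read 8.22, 7.50, 8.62 (6 h), 8.19, 7.61, 9.26 (12 h) and 8.18, 7.41, 8.72 (24 h). The WT groups overlapped at each time, yet within each replicate number the stimulated value was the lower one. NQO1 in KO vehicle libraries read 8.47, 8.74, 9.15 (6 h), 8.90, 8.78, 9.64 (12 h) and 8.65, 8.33, 9.32 (24 h). NQO1 in stimulated KO libraries read 7.19, 7.94, 7.74 (6 h), 7.64, 7.29, 8.70 (12 h) and 7.78, 7.40, 8.55 (24 h). The KO groups were apart at 6 and 12 h. Log2 changes of NQO1 at the 3 times were -0.90, -0.78 and -0.69 in WT cells (SE 0.45, adjusted p = 0.1196, 0.1738 and 0.2148) and -1.16, -1.23 and -0.86 in KO cells (SE 0.45, adjusted p = 0.0407, 0.0334 and 0.1347). In WT cells the paired fit called NQO1 at 6 h (adjusted p = 0.0029 with a replicate block, 0.0029 to 0.3852 over all alternatives), at 12 h (adjusted p = 0.0084 with a replicate block, 0.0084 to 0.5472 over all alternatives) and at 24 h (adjusted p = 0.0158 with a replicate block, 0.0158 to 0.6019 over all alternatives). NQO1 at 12 h in WT cells also passed without stimulated replicate 3 (-1.23). The KO calls were lost without any one of stimulated replicates 1 or 3 and vehicle replicates 2 or 3 (-1.22 to -0.95) at 6 h and without any one of stimulated replicates 1 or 2 and vehicle replicates 1 or 3 (-1.33 to -0.93) at 12 h. In KO cells at 24 h, where the numbers were not shown to pair the libraries, NQO1 passed with a replicate block (adjusted p = 0.0040, 0.0040 to 0.3993 over all alternatives).

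OSGIN1, an oxidative stress-induced growth inhibitor, had no call. OSGIN1 in WT vehicle libraries read 5.92, 5.30, 5.90 (6 h), 6.16, 5.07, 6.43 (12 h) and 6.01, 4.79, 6.53 (24 h). OSGIN1 in stimulated WT libraries read 6.03, 5.35, 6.54 (6 h), 5.94, 5.40, 7.12 (12 h) and 6.26, 5.69, 6.00 (24 h). The WT groups overlapped throughout. OSGIN1 in KO vehicle libraries read 4.90, 6.23, 5.07 (6 h), 4.86, 5.55, 5.29 (12 h) and 5.13, 4.88, 5.56 (24 h). OSGIN1 in stimulated KO libraries read 5.72, 7.00, 7.00 (6 h), 5.84, 5.92, 6.95 (12 h) and 6.38, 6.26, 6.29 (24 h). In KO cells the groups overlapped at 6 h and were apart later. Log2 changes of OSGIN1 at the 3 times were 0.27, 0.27 and 0.21 in WT cells (SE 0.47, adjusted p = 0.7050, 0.6868 and 0.7538) and 1.17, 1.00 and 1.12 in KO cells (SE 0.47, adjusted p = 0.0501, 0.1010 and 0.0605). In KO cells at 6 h OSGIN1 passed without stimulated replicate 1 (1.60) or vehicle replicate 2 (1.59) and in a paired fit (adjusted p = 0.0244 with a replicate block, 0.0145 to 0.1902 over all alternatives). Some alternatives also called it in KO cells at 24 h (adjusted p = 0.0306 with a replicate block, 0.0075 to 0.1738 over all alternatives). EPHX1, the microsomal epoxide hydrolase, spanned 6.81 to 9.56. Log2 changes of EPHX1 at the 3 times were -0.17, -0.75 and -1.33 in WT cells (SE 0.44, adjusted p = 0.8031, 0.1828 and 0.0143) and 0.06, -0.96 and -1.18 in KO cells (SE 0.44, adjusted p = 0.9291, 0.0934 and 0.0331). EPHX1 lost its 24 h calls without stimulated replicate 2 (-1.04), vehicle replicate 1 (-1.19) or vehicle replicate 3 (-0.99) and in a fit of only the libraries compared in WT and without any one of stimulated replicates 1 or 2 and vehicle replicates 1 or 3 (-1.24 to -0.95) in KO cells. At 12 h in KO cells it passed in a paired fit (adjusted p = 0.0181 with a replicate block, 0.0115 to 0.2338 over all alternatives).

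SOD2, the manganese superoxide dismutase of mitochondria, had the largest change of the 34 genes in every stimulation comparison. SOD2 in WT vehicle libraries read 7.62, 7.62, 6.73 (6 h), 7.07, 6.43, 6.83 (12 h) and 7.21, 6.58, 6.83 (24 h). SOD2 in stimulated WT libraries read 13.87, 13.60, 13.32 (6 h), 13.98, 13.12, 13.96 (12 h) and 14.06, 13.87, 12.91 (24 h). Stimulated WT values were all above 12, against vehicle values under 8. SOD2 in KO vehicle libraries read 5.82, 5.54, 5.69 (6 h), 5.97, 5.67, 5.91 (12 h) and 6.09, 6.05, 5.84 (24 h). SOD2 in stimulated KO libraries read 13.08, 12.30, 13.33 (6 h), 12.41, 12.60, 12.86 (12 h) and 12.69, 13.16, 12.86 (24 h). The KO groups did not overlap either. Log2 changes of SOD2 at the 3 times were 6.28, 6.91 and 6.74 in WT cells (SE 0.29, adjusted p = 9.42e-16, 1.17e-16 and 2.30e-16) and 7.22, 6.77 and 6.91 in KO cells (SE 0.29, adjusted p = 4.26e-17, 1.22e-16 and 6.75e-17). At 6 h SOD2 was 77.5-fold higher in WT and 149-fold higher in KO cells. SOD1, the copper and zinc enzyme of the cytosol, spanned 8.10 to 9.87. Log2 changes of SOD1 at the 3 times were -0.33, -0.44 and -0.85 in WT cells (SE 0.31, adjusted p = 0.4309, 0.2683 and 0.0239) and -0.11, -0.29 and -0.58 in KO cells (SE 0.31, adjusted p = 0.7982, 0.4963 and 0.1367). The WT call at 24 h was lost without stimulated replicate 1 (-0.69), stimulated replicate 2 (-0.66) or vehicle replicate 3 (-0.58) and in a fit of only the libraries compared. SOD1 in KO cells at 24 h passed with a replicate block (adjusted p = 0.0292, 0.0292 to 0.5270 over all alternatives).

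CAT, catalase, which breaks down the hydrogen peroxide that dismutases make, had the largest fall of the 34 genes at 12 and 24 h in both genotypes. CAT in WT vehicle libraries read 9.71, 8.84, 9.98 (6 h), 10.66, 8.99, 10.57 (12 h) and 10.48, 9.63, 10.13 (24 h). CAT in stimulated WT libraries read 7.68, 6.69, 7.77 (6 h), 6.55, 6.26, 6.55 (12 h) and 6.55, 6.53, 5.86 (24 h). Stimulated WT values lay below every vehicle value. CAT in KO vehicle libraries read 9.94, 9.63, 9.82 (6 h), 10.13, 9.89, 10.41 (12 h) and 10.55, 10.55, 10.58 (24 h). CAT in stimulated KO libraries read 7.49, 6.88, 7.22 (6 h), 6.42, 6.35, 6.63 (12 h) and 6.79, 6.67, 6.91 (24 h). So did the KO values. Log2 changes of CAT at the 3 times were -2.13, -3.62 and -3.77 in WT cells (SE 0.34, adjusted p = 1.14e-05, 1.40e-09 and 5.48e-10) and -2.60, -3.68 and -3.77 in KO cells (SE 0.34, adjusted p = 4.26e-07, 8.70e-10 and 4.86e-10). CAT was 13.6-fold lower in WT and 13.7-fold lower in KO cells at 24 h, while SOD2 was 107-fold and 120-fold higher.

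**Figure D4:**
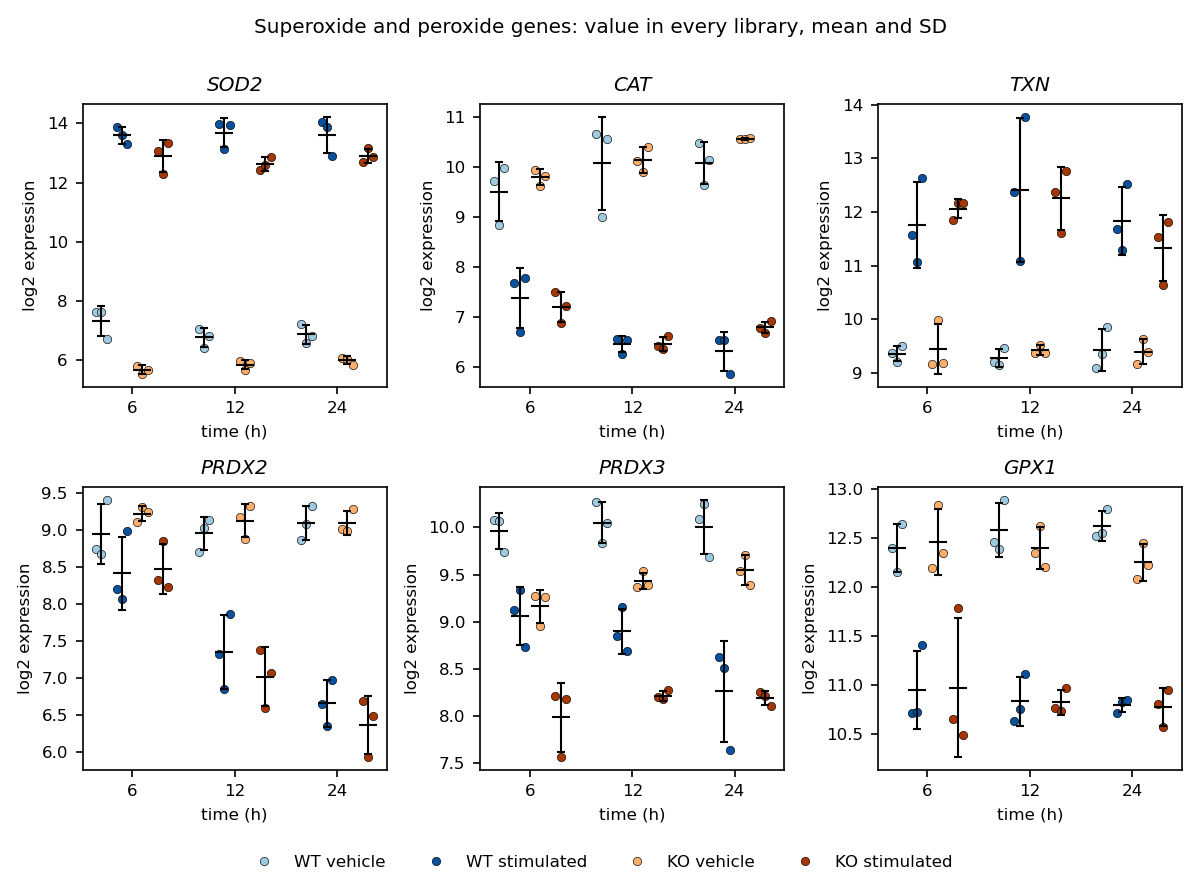
Log2 expression (y axis) against time in h (x axis) for 6 genes of superoxide and peroxide handling. Points are libraries, the bar is the mean and the whiskers the SD (n = 3). SOD2 and TXN rise and CAT, PRDX3 and GPX1 fall at each time in both genotypes, and PRDX2 falls further from 6 to 24 h.

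The second question was how the IRG1 knockout differed from WT cells before and after stimulation. With vehicle, genes of NADPH supply were lower in the KO. At 6 h 1 of the 34 genes was higher and 7 were lower, beside 8.19% of all rows called (4.28% higher, 3.91% lower). At 12 h 0 were higher and 3 lower, beside 5.24% of rows (2.9% higher, 2.34% lower), and at 24 h 0 were higher and 2 lower, beside 3.98% (2.23% higher, 1.75% lower). At an unadjusted p below 0.05 there were 11, 13 and 9 genes (1 higher at each time, the rest lower), beside 20.7%, 16.1% and 14.7% of all rows (10.3%, 7.96% and 7.06% higher, 10.4%, 8.09% and 7.67% lower). The count of calls at 6 h was 5 without KO replicate 1 or WT replicate 1. At 12 h it was 0 without KO replicate 1, WT replicate 1 or WT replicate 3, and 6 without WT replicate 2. At 24 h it was 0 without KO replicate 1 or 3 or WT replicate 1 or 3. Paired fits called 7 genes at 12 h and 5 at 24 h. These contrasts use the same vehicle libraries as the stimulation contrasts. Log2 changes, KO minus WT with vehicle, were largest at 6 h for GCLC, with -2.63, -1.60 and -0.89 (SE 0.56, adjusted p = 0.0026, 0.0988 and 0.5217). The 3 KO libraries at 6 h (7.57 to 8.28) were all below the WT libraries (10.25 to 10.93), and GCLC was 6.19-fold lower. At 12 h GCLC passed without WT replicate 2 (-2.15) and in a paired fit (adjusted p = 0.0050 with a replicate block, 0.0050 to 0.4062 over all alternatives).

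Of the 4 NADPH genes 3 were lower at 6 h and 12 h. ME1 changed by -2.43, -1.95 and -1.44 (SE 0.55, adjusted p = 0.0049, 0.0340 and 0.1679), with KO libraries at 6.01 to 7.76 and WT libraries at 8.90 to 9.63 at 6 h. The ME1 groups overlapped at 12 and 24 h. PGD had values of -1.45, -1.22 and -0.76 (SE 0.29, adjusted p = 0.0016, 0.0106 and 0.1679), and TKT of -1.00, -1.18 and -1.12 (SE 0.28, adjusted p = 0.0229, 0.0097 and 0.0187). TALDO1 had no call, with -0.70, -0.73 and -0.54 (SE 0.31, adjusted p = 0.1896, 0.2144 and 0.4674). The KO and WT vehicle groups of PGD and TKT were apart at all 3 times, with the KO libraries lower. ME1 lost its 12 h call without any one of KO replicates 1 or 2 and WT replicates 1 or 3 (-1.83 to -1.63) and in a fit of only the libraries compared, and passed at 24 h in a paired fit (adjusted p = 0.0125 with a replicate block, 0.0125 to 0.5011 over all alternatives). PGD lost its 12 h call without KO replicate 1 (-1.11), WT replicate 1 (-1.03) or WT replicate 3 (-1.14) and in a fit of only the libraries compared. TKT lost its calls without any one of KO replicates 1 or 3 and WT replicates 1 or 3 (-1.03 to -0.86) at 6 h, without KO replicate 1 (-1.11), WT replicate 1 (-1.00) or WT replicate 3 (-1.05) and in a fit of only the libraries compared at 12 h and without any one of KO replicates 1, 2 or 3 and WT replicates 1 or 3 (-1.16 to -1.02) and in a fit of only the libraries compared at 24 h.

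Other vehicle calls were single. HMOX1 differed by -1.72, -1.17 and -1.25 (SE 0.44, adjusted p = 0.0124, 0.1368 and 0.1246), and its groups were apart at each time, with the KO libraries lower. SOD2 differed by -1.64, -0.92 and -0.88 (SE 0.29, adjusted p = 4.82e-04, 0.0645 and 0.0975), also with groups apart at each time. PRDX3 gave -0.80, -0.62 and -0.46 (SE 0.22, adjusted p = 0.0192, 0.1071 and 0.3179) and PRDX1 gave -0.68, -0.64 and -0.88 (SE 0.23, adjusted p = 0.0602, 0.1080 and 0.0213). PRDX6 was the only gene of the 34 called higher in KO cells, with 0.95, 0.79 and 0.80 (SE 0.27, adjusted p = 0.0246, 0.0885 and 0.1001). HMOX1 lost its 6 h call without KO replicate 1 (-1.34) or WT replicate 2 (-1.54) and in a fit of only the libraries compared, and passed at 24 h in a paired fit (adjusted p = 0.0468 with a replicate block, 0.0468 to 0.4102 over all alternatives). SOD2 at 12 h passed without WT replicate 2 (-1.10) and in a paired fit (adjusted p = 0.0350 with a replicate block, 0.0350 to 0.2780 over all alternatives). PRDX3 lost its 6 h call without KO replicate 2 (-0.70), WT replicate 1 (-0.74) or WT replicate 2 (-0.75) and in a fit of only the libraries compared. PRDX6 lost its own without KO replicate 1 (0.90), KO replicate 3 (0.92) or WT replicate 1 (0.74) and in a fit of only the libraries compared.

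PRDX6 passed in a paired fit at 12 h (adjusted p = 0.0407 with a replicate block, 0.0331 to 0.4573 over all alternatives) and 24 h (adjusted p = 0.0452 with a replicate block, 0.0452 to 0.4340 over all alternatives). It also passed at 12 h without WT replicate 2 (1.03) and at 24 h without KO replicate 2 (1.01) or WT replicate 2 (1.01). PRDX1 lost its 24 h call without any one of KO replicates 1 or 3 and WT replicates 1 or 3 (-0.90 to -0.75) and in a fit of only the libraries compared. At 6 h PRDX1 passed without KO replicate 2 (-0.88), and at 12 h in a paired fit (adjusted p = 0.0423 with a replicate block, 0.0423 to 0.4826 over all alternatives). NFE2L2 and KEAP1 had no call with vehicle. NFE2L2 gave -0.20, 0.05 and 0.12 (SE 0.37, adjusted p = 0.8309, 0.9842 and 0.9531) and KEAP1 0.02, 0.15 and 0.03 (SE 0.17, adjusted p = 0.9678, 0.8121 and 0.9760).

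Macrophage markers moved with these differences. Their summed level was 13.922 to 15.362 in the WT vehicle groups and 12.289 to 13.457 in the KO vehicle groups, which did not overlap. Of the 12 markers 0 were higher and 6, 5 and 5 were lower in KO cells at 6, 12 and 24 h, with CD163 at -5.36, -5.58 and -5.31 on the log2 scale among them. With stimulation the sums were 13.27 to 14.241 in WT and 12.357 to 13.383 in KO groups, and 4, 3 and 2 markers were lower. Markers of other cell types had sums of 6.646 to 8.905 over all groups, and of the 15 tested 2 rose and 2 fell at 6 h with vehicle. The part of this difference in cell state in the KO minus WT values of the antioxidant genes was not tested.

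With stimulation few of the 34 genes were called between the genotypes, a share near that of all rows at 6 and 12 h and below it at 24 h. At 6 h 0 were higher and 3 lower in KO cells, beside 8.71% of all rows called (4.86% higher, 3.86% lower). At 12 h 0 were higher and 1 lower, beside 3.45% of rows (1.78% higher, 1.68% lower), and at 24 h limma called 0, beside 5.87% (3.41% higher, 2.46% lower), with 5 genes at an unadjusted p below 0.05, beside 21.2% of all rows. The count at 6 h was 1 without KO replicate 1 or any WT replicate. At 12 h it was 2 without WT replicate 2 and 0 without any other library. At 24 h it was 1 without KO replicate 2 and 2 without WT replicate 2, and paired fits called 4 genes at 12 h and 3 at 24 h. GCLC gave -1.74, 0.16 and 1.12 (SE 0.56, adjusted p = 0.0485, 0.9341 and 0.2447), so that its lower value at 6 h was followed by a higher one, not called, at 24 h. PRDX3 gave -1.08, -0.68 and -0.07 (SE 0.22, adjusted p = 0.0021, 0.0843 and 0.9027), TKT -0.99, -0.85 and -0.83 (SE 0.28, adjusted p = 0.0254, 0.0921 and 0.0747) and SOD2 -0.69, -1.06 and -0.71 (SE 0.29, adjusted p = 0.1467, 0.0393 and 0.1530). The stimulated libraries of PRDX3 and TKT were apart at 6 and 12 h and those of SOD2 at 12 h. NFE2L2 gave -0.60, -0.04 and 0.60 (SE 0.37, adjusted p = 0.3516, 0.9789 and 0.3731), HMOX1 -1.00, -0.71 and -1.05 (SE 0.44, adjusted p = 0.1649, 0.4591 and 0.1628), ME1 -1.30, -0.62 and 0.03 (SE 0.55, adjusted p = 0.1509, 0.6432 and 0.9856) and NQO1 -0.49, -0.47 and -0.19 (SE 0.45, adjusted p = 0.5519, 0.6716 and 0.8551).

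All 4 calls were fragile. GCLC at 6 h was lost without any one of KO replicates 1 or 2 and WT replicates 1, 2 or 3 (-1.89 to -1.34) and in a fit of only the libraries compared and with a pseudocount of 5 (-1.63). PRDX3 at 6 h was lost in a fit of only the libraries compared, and passed at 12 h in a paired fit (adjusted p = 0.0386 with a replicate block, 0.0386 to 0.2442 over all alternatives). TKT at 6 h was lost without any one of KO replicates 1 or 3 and WT replicates 1, 2 or 3 (-1.01 to -0.76) and in a fit of only the libraries compared, and passed in a paired fit at 12 h (adjusted p = 0.0366 with a replicate block, 0.0366 to 0.3241 over all alternatives) and 24 h (adjusted p = 0.0308 with a replicate block, 0.0152 to 0.4187 over all alternatives). SOD2 at 12 h was lost without any one of KO replicates 1, 2 or 3 and WT replicates 1 or 3 (-1.18 to -0.92) and in a fit of only the libraries compared. Calls at 24 h appeared without KO replicate 2 (1.89) for GCLC, without WT replicate 2 (-1.57) for HMOX1 and without WT replicate 2 (-1.14) for TKT. In paired fits GCLC at 24 h (adjusted p = 0.0447 with a replicate block, 0.0337 to 0.6676 over all alternatives), PRDX1 at 24 h (adjusted p = 0.0483 with a replicate block, 0.0483 to 0.3096 over all alternatives) and MAFG at 12 h (adjusted p = 0.0287 with a replicate block, 0.0219 to 0.2985 over all alternatives) passed, the last with a log2 change of -0.78. MAFG at 12 h passed without WT replicate 2 (-0.99) as well.

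**Figure D5:**
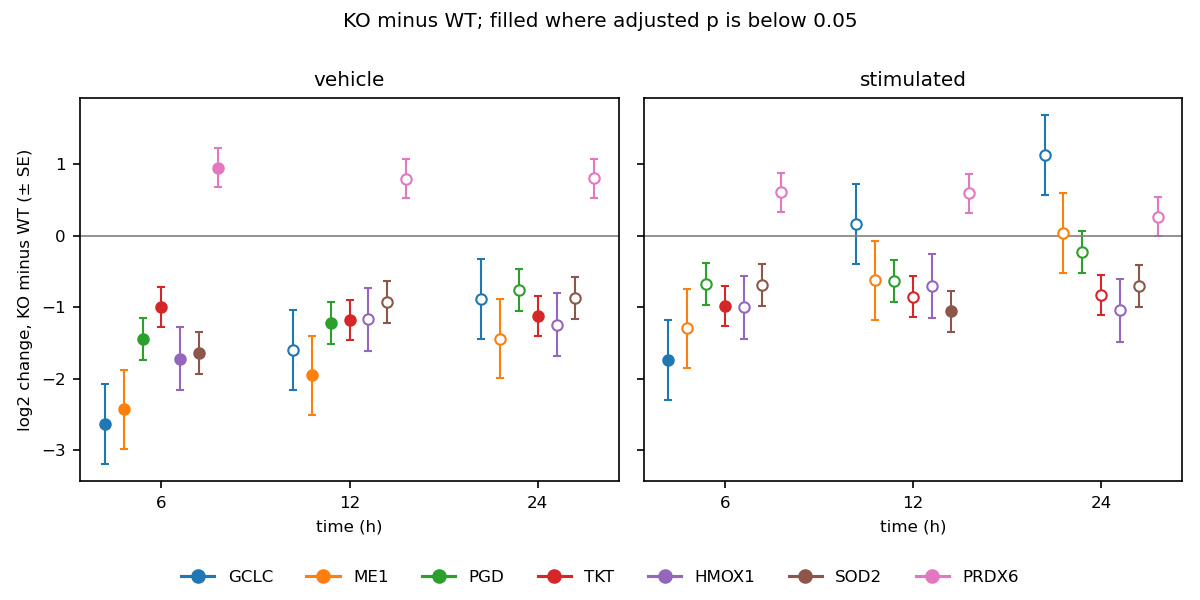
Log2 change, KO minus WT (y axis, ± SE), at 6, 12 and 24 h (x axis) for 7 genes in vehicle cells (left) and stimulated cells (right). Filled points have a limma adjusted p below 0.05. GCLC and ME1 are lowest in vehicle cells at 6 h, PRDX6 is above 0 throughout, and TKT is filled at all 3 vehicle times.

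Whether the response itself differed was tested as the KO response minus the WT response. Of the 34 genes limma called 0 at 6 h, beside 0.452% of all rows (0.283% higher, 0.17% lower), and 0 at 12 h, beside 0.16% (0.0612% higher, 0.0989% lower), with 1 and 2 genes at an unadjusted p below 0.05, beside 8.31% and 7.07% of rows. At 24 h it called 1, beside 0.433% (0.174% higher, 0.259% lower). That 1 gene was PRDX1, with differences of 0.44, 0.78 and 1.48 (SE 0.32, adjusted p = 0.8684, 0.5637 and 0.0320). In WT cells it fell at 24 h and in KO cells it rose, from a vehicle level that was lower in the KO. PRDX1 lost this call without any one of KO stimulated replicates 1 or 3, KO vehicle replicates 1 or 3, WT stimulated replicate 3 and WT vehicle replicates 1 or 3 (1.34 to 1.56) and in a fit of only the libraries compared. GCLC, whose fall was called at 3 times in WT and 1 time in KO cells, gave 0.89, 1.76 and 2.01 (SE 0.79, adjusted p = 0.9402, 0.6403 and 0.2797). In a paired fit, which called 2 genes, PRDX1 and GCLC, GCLC passed at 24 h (adjusted p = 0.0405 with a replicate block, 0.0405 to 0.5865 over all alternatives). Replicate 2 of the stimulated and vehicle KO libraries at 24 h did not deviate together (r = 0.039 across genes), so the numbers were not shown to pair all libraries of this contrast. NFE2L2 gave -0.39, -0.09 and 0.49 (SE 0.53, adjusted p = 0.9998, 0.9999 and 0.7955), HMOX1 0.72, 0.47 and 0.20 (SE 0.63, adjusted p = 0.9347, 0.9999 and 0.9448), SOD2 0.94, -0.14 and 0.17 (SE 0.41, adjusted p = 0.5187, 0.9999 and 0.9283) and ME1 1.13, 1.33 and 1.48 (SE 0.78, adjusted p = 0.8501, 0.8436 and 0.4623). The 95% interval of the NFE2L2 difference at 24 h was -0.60 to 1.57.

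The response changed between 6 h and 24 h in 5 genes in WT cells (2 up, 3 down), beside 9.64% of all rows called (4.38% higher, 5.26% lower). In KO cells it changed in 3 genes (2 up, 1 down), beside 6.75% of rows (3.35% higher, 3.41% lower). HMOX1 moved most, by 3.11 ± 0.63, adjusted p = 0.0023 in WT and 2.59 ± 0.63, adjusted p = 0.0112 in KO cells, from a fall at 6 h to values above vehicle that were not called at 24 h. Its vehicle libraries read lower at 24 h than at 6 h in both genotypes and its stimulated libraries higher on average, so both enter this difference. SQSTM1 gave 1.54 ± 0.40, adjusted p = 0.0140 and 1.84 ± 0.40, adjusted p = 0.0057. PRDX2 gave -1.91 ± 0.39, adjusted p = 0.0025 and -1.98 ± 0.39, adjusted p = 0.0024. In WT cells BLVRA, which was highest at 6 h, gave -1.78 ± 0.45, adjusted p = 0.0117 and CAT gave -1.64 ± 0.48, adjusted p = 0.0265. In KO cells these were -1.19 ± 0.45, adjusted p = 0.1090 for BLVRA and -1.17 ± 0.48, adjusted p = 0.1397 for CAT, and the difference between genotypes was not tested. In a paired fit both passed in KO cells, BLVRA (adjusted p = 0.0317 with a replicate block, 0.0317 to 0.3192 over all alternatives) and CAT (adjusted p = 0.0424 with a replicate block, 0.0424 to 0.2439 over all alternatives), and CAT also in a fit of only the libraries compared. The KO contrast uses the KO libraries at 24 h, where replicate 2 had r = 0.039, so the numbers were not shown to pair all its libraries. CAT lost its WT call without any one of stimulated 24 h replicate 3, stimulated 6 h replicates 1 or 3, vehicle 24 h replicates 1 or 3 and vehicle 6 h replicate 2 (-1.62 to -1.31) and in a fit of only the libraries compared. PRDX3 gained one without stimulated 24 h replicate 1 (-1.03) and in a paired fit (adjusted p = 0.0429 with a replicate block, 0.0423 to 0.2486 over all alternatives).

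Beside the 34, a wider list of 69 genes of the same pathway had 68 rows, of which 65 passed the filter. Stimulation raised 7, 9 and 12 and lowered 12, 18 and 24 of the 65 in WT cells, and raised 9, 8 and 13 and lowered 18, 19 and 24 in KO cells. Over all rows 15.1%, 16.8% and 20.2% rose and 20.9%, 21.7% and 26.1% fell in WT cells, and 16.2%, 15.5% and 17.3% rose and 22.5%, 19.5% and 21.6% fell in KO cells. The called share of the wider list was 29.2%, 41.5% and 55.4% in WT, where 36%, 38.5% and 46.4% of all rows were called, and 41.5%, 41.5% and 56.9% in KO cells, where 38.7%, 35% and 38.9% were. Their median changes were -0.28, -0.27 and -0.26 in WT and -0.09, -0.22 and -0.53 in KO cells. MAFF, another small MAF protein, had the largest rise in WT cells, with 4.00, 4.88 and 5.21 (SE 0.47, adjusted p = 1.12e-07, 3.32e-09 and 8.12e-10) in WT and 3.70, 4.00 and 5.76 (SE 0.47, adjusted p = 3.69e-07, 1.16e-07 and 9.58e-11) in KO cells. NFE2L3, a relative of NRF2, gave 3.71, 2.97 and 3.10 (SE 0.46, adjusted p = 2.52e-07, 9.57e-06 and 3.61e-06) and 4.34, 4.18 and 4.40 (SE 0.46, adjusted p = 1.28e-08, 3.12e-08 and 1.1e-08). CHAC1, which degrades glutathione, gave 1.07, 0.19 and 3.69 (SE 0.85, adjusted p = 0.3476, 0.8797 and 0.000755) and 4.77, 1.07 and 6.16 (SE 0.85, adjusted p = 5e-05, 0.3500 and 1.19e-06). Vehicle means of CHAC1 were low, at 3.13, 4.04 and 4.79 in WT and 1.33, 2.48 and 2.76 in KO cells. The KO means and the WT mean at 6 h were under the minimum of 3.32 for keeping rows. Vehicle means of MAFF were 3.91, 3.84 and 3.94 in WT and 3.98, 3.68 and 2.96 in KO cells, the last under this minimum. SESN2, a stress-induced sestrin, gave 0.73, 1.44 and 3.38 (SE 0.56, adjusted p = 0.3269, 0.0402 and 1.43e-05) and 0.74, 1.10 and 3.91 (SE 0.56, adjusted p = 0.3103, 0.1261 and 2.02e-06), and its WT call at 12 h was lost without any one of stimulated replicate 2 and vehicle replicates 1, 2 or 3 (0.99 to 1.59).

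In KO against WT cells 2, 4 and 3 of the 65 were higher and 3, 2 and 2 lower with vehicle, and 2, 1 and 4 were higher and 1, 0 and 3 lower with stimulation. These were 7.69%, 9.23% and 7.69% of the list with vehicle, beside 8.19%, 5.24% and 3.98% of all rows, and 4.62%, 1.54% and 10.8% with stimulation, beside 8.71%, 3.45% and 5.87%. GPX3, a secreted glutathione peroxidase, had the largest change, with 4.81, 4.33 and 4.34 (SE 0.49, adjusted p = 2.15e-07, 1.88e-06 and 3.35e-06) with vehicle and 3.63, 2.42 and 1.63 (SE 0.49, adjusted p = 2.19e-05, 0.0042 and 0.0474) with stimulation. WT means of GPX3 were all under the 3.32 for keeping rows, at 0.81, 1.85 and 1.77 with vehicle and 2.06, 1.66 and 1.22 with stimulation. KO means were 5.62, 6.17 and 6.11 with vehicle and 5.68, 4.08 and 2.85 with stimulation. GPX8, of the endoplasmic reticulum, gave 1.01, 1.64 and 1.72 (SE 0.34, adjusted p = 0.0643, 0.0031 and 0.0028) with vehicle. It passed at 6 h without KO replicate 2 (1.29). The exporter ABCC4 gave 0.87, 1.42 and 1.89 (SE 0.52, adjusted p = 0.3701, 0.1271 and 0.0341) with vehicle and 1.04, 1.65 and 2.14 (SE 0.52, adjusted p = 0.2311, 0.0767 and 0.0148) with stimulation. SOD3, the secreted dismutase, gave 1.34, 3.35 and 1.09 (SE 0.91, adjusted p = 0.4400, 0.0257 and 0.6891) with vehicle and 2.84, 2.64 and 1.75 (SE 0.91, adjusted p = 0.0482, 0.1097 and 0.2676) with stimulation. WT means of SOD3, 2.68, 0.73 and 2.88 with vehicle and 1.76, 2.16 and 0.41 with stimulation, were likewise under 3.32. KO means were 4.02, 4.08 and 3.96 with vehicle and 4.60, 4.80 and 2.16 with stimulation. AKR1C1, an aldo-keto reductase, gave -0.58, -0.81 and -1.70 (SE 0.52, adjusted p = 0.5416, 0.4748 and 0.0488) with stimulation. Both the KO and the WT means of AKR1C1 with stimulation were under 3.32 at every time, so this call compares low values.

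Leaving out libraries ended several of these calls. With stimulation GPX3 at 24 h was lost without any one of KO replicates 1, 2 or 3 and WT replicates 1, 2 or 3 (1.47 to 1.73) and in a fit of only the libraries compared and with a pseudocount of 5 (0.74), AKR1C1 at 24 h without any one of KO replicates 1, 2 or 3 and WT replicates 1, 2 or 3 (-1.84 to -1.51) and in a fit of only the libraries compared and with a pseudocount of 5 (-0.72), ABCC4 at 24 h without KO replicate 1 (1.86) or WT replicate 3 (1.51) and in a fit of only the libraries compared and SOD3 at 6 h without any one of KO replicates 1 or 2 and WT replicates 1, 2 or 3 (1.88 to 3.29) and in a fit of only the libraries compared. GPX3 at 6 h and 12 h was lost in a fit of only the libraries compared. ABCC4 at 6 h passed without KO replicate 2 (1.82). With vehicle ABCC4 at 24 h was lost without any one of KO replicates 1 or 3 and WT replicates 1, 2 or 3 (1.59 to 2.07) and in a fit of only the libraries compared, and SOD3 at 12 h without any one of KO replicates 1, 2 or 3 and WT replicates 1 or 2 (2.95 to 3.60) and in a fit of only the libraries compared and with a pseudocount of 5 (1.67).

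AKR1A1 was the only one of the 65 called for a different response in KO cells, beside 0.433% of all rows at 24 h, with 0.34, 0.83 and 1.68 (SE 0.37, adjusted p = 0.9765, 0.6314 and 0.0325). That call was lost without any one of KO stimulated replicates 1 or 3, KO vehicle replicates 1 or 3, WT stimulated replicate 3 and WT vehicle replicates 1 or 3 (at most 1.78) and in a fit of only the libraries compared. Of the named genes of the list, GPX3 differed in response by -2.71 at 24 h (adjusted p = 0.0738) and passed with a pseudocount of 5 (-2.37) and in a paired fit (adjusted p = 0.0349 with a replicate block), and CHAC1 differed by 3.70 at 6 h (adjusted p = 0.2330) and passed in a paired fit (adjusted p = 0.0467 with a replicate block). For both contrasts the numbers were not shown to pair all libraries. Over time 7 of the 65 rose and 4 fell in their WT response and 5 rose and 8 fell in their KO response, beside 4.38% higher and 5.26% lower of all rows in WT and 3.35% higher and 3.41% lower in KO cells. NFE2L1, another relative of NRF2, gave 2.79 ± 0.51, adjusted p = 0.000991 in WT and 3.13 ± 0.51, adjusted p = 0.000431 in KO cells. SESN2 gave 2.66 ± 0.79, adjusted p = 0.0299 and 3.17 ± 0.79, adjusted p = 0.0133. GPX3 gave -1.80 ± 0.70, adjusted p = 0.1035 and -3.32 ± 0.70, adjusted p = 0.0045, and SESN3 gave -1.39 ± 0.81, adjusted p = 0.3042 and -2.95 ± 0.81, adjusted p = 0.0247. SESN2 lost its WT call without any one of stimulated 24 h replicates 1 or 2, stimulated 6 h replicates 1 or 3, vehicle 24 h replicates 2 or 3 and vehicle 6 h replicate 1 (1.92 to 2.60) and in a fit of only the libraries compared and its KO call without stimulated 24 h replicate 2 (2.51). SESN3 lost its KO call without any one of stimulated 24 h replicate 3, stimulated 6 h replicate 1, vehicle 24 h replicates 1 or 2 and vehicle 6 h replicates 2 or 3 (-2.82 to -2.48) and in a fit of only the libraries compared. GPX3 gained a WT call without stimulated 6 h replicate 3 (-2.30).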

How the data were processed

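The deposited table holds log2 expression values per gene for 36 libraries, which the authors had already scaled and logged by steps not given in the sources used here. Cutadapt 1.9.1, GSNAP and GRCh37.p5 are named per the submitters' processing notes. Library medians lay between 5.4691 and 5.4753, and the table gives no read counts or depth. All 36 libraries had the same lowest (-0.34) and highest (16.75) value, and 88.0% of ranks lay within 0.1 between libraries. Such near-equal distributions are what quantile normalization produces, so changes are relative to the other genes of a library. Rows at 3.32 (log2 of 10) or more in at least 3 libraries were kept (21232, with 367 removed). limma 3.58.1 in R 4.3.3 fitted 12 group means with a mean-variance trend (24 residual degrees of freedom), and p-values of 17 comparisons were Benjamini-Hochberg adjusted over all rows. limma was tested on simulated data for WT stimulation at 6 h (21232 rows with the measured spread). There it recovered 12 of 100 rows changed by 1 and 59 of 100 changed by 2 on the log2 scale. No other rows were changed, whereas 36% of rows were called in the measured comparison. The adjustment is stricter where few rows change, so these rates may not hold for the measured stimulation comparisons. A change near 1 without a call is still not evidence of no change. Same-numbered libraries deviated together (every pair correlation over 0.1) in 9 of 12 comparisons, so the replicate block is given there, and for the 4-group contrasts where it changed a call. Members and lists were chosen with earlier results of these data known. Values by library are given for NFE2L2, KEAP1, HMOX1, NQO1, GCLM, GCLC, TXNRD1, SRXN1, OSGIN1, SOD2 and every member called with a log2 change of at least 1.5 in size, and for PGD and PRDX1, chosen after their values were seen. Of the wider list up to 4 genes with the largest called change in each family of comparisons are named. Alternatives are listed in the closing section.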

Additional observations from a re-analysis of the deposited data

Results flagged for a closer look

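Some responses differed between 24 h and 6 h by the interaction term of limma, whose log2 values follow as the 24 h response minus the 6 h response. HMOX1 had 3.11 in WT and 2.59 in KO cells, and SQSTM1 had 1.54 in WT and 1.84 in KO cells. PRDX2 had -1.91 in WT and -1.98 in KO cells, BLVRA had -1.78 in WT cells and CAT had -1.64 in WT cells. Of the wider pathway list, NFE2L1 had 2.79 in WT and 3.13 in KO cells and SESN2 had 2.66 in WT and 3.17 in KO cells. GPX3 had -3.32 and SESN3 had -2.95 in KO cells. The calls of CAT and SESN2 in WT and of SESN3 in KO cells were lost in a fit of only the libraries compared and without any one of several libraries, and that of SESN2 in KO cells without stimulated 24 h replicate 2 (2.51).

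The response at 24 h differed between the genotypes in PRDX1, with a KO minus WT response of 1.48, and in AKR1A1, with 1.68. Both calls were lost in a fit of only the libraries compared and without any one of KO stimulated replicates 1 or 3, KO vehicle replicates 1 or 3, WT stimulated replicate 3 and WT vehicle replicates 1 or 3.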

How the results depend on the processing

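Counts of called members held within 1.5 times under every alternative for stimulation against vehicle and for the WT response over time. Leaving out 1 library gave 11 to 15, 12 to 17 and 19 to 22 calls in WT and 11 to 17, 14 to 15 and 14 to 19 in KO cells at 6, 12 and 24 h. A fit of only the libraries compared called 14, 14 and 18 in WT cells, against 13, 17 and 21 in the main fit. In KO cells it called 11, 21 and 23, against 16, 15 and 21. The KO minus WT counts moved more. With vehicle they ranged from 5 to 8, 0 to 6 and 0 to 3, with stimulation from 1 to 2, 0 to 2 and 0 to 2, and for the difference in response at 24 h from 0 to 1. In a fit of only the libraries compared they were 5 (vehicle, 6 h), 0 (vehicle, 12 h), 1 (vehicle, 24 h), 0 (stimulated, 6 h), 0 (stimulated, 12 h) and 0 (difference in response, 24 h), with fewer residual degrees of freedom. With the replicate block they were 7 and 5 with vehicle at 12 and 24 h, 5, 4 and 3 with stimulation, 2 for the difference in response at 24 h and 5 for the KO response over time. The block ended no call. Without KO stimulated 6 h replicate 2 and WT stimulated 24 h replicate 3, chosen after seeing the data, the stimulated count at 24 h was 1, with 8 member calls gained and 3 lost in the comparisons that use either library. No change reversed. Median centring, no filter and a pseudocount of 5 moved at most 1 call in each direction.

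Over all rows the called number for KO minus WT fell in the fit of only the libraries compared from 1739, 1112 and 845 to 750, 562 and 284 with vehicle and from 1850, 733 and 1247 to 111, 47 and 3 with stimulation. With the block it was 2712, 1775 and 1451 with vehicle and 2932, 1504 and 2464 with stimulation, and without both doubted libraries 1274 and 675 with stimulation at 12 and 24 h. For the difference in response it was 96, 34 and 92, against 0, 4 and 4 with only the libraries compared, 219, 115 and 427 with the block, 186, 82 and 157 with the pseudocount, and 188, 78 and 63 without both libraries. Over time it was 2046 in WT and 1434 in KO cells, against 932 and 609 with only the libraries compared and 3242 and 2485 with the block. KO stimulation at 6 h had 8219, against 4624 with only the libraries compared. Leaving out 1 library moved these numbers too. With vehicle the KO minus WT number was lowest without WT replicate 1 at 6 h (982) and without KO replicate 1 at 12 h (449) and 24 h (291), and with stimulation without WT replicate 1 at 6 h (932) and without KO replicate 1 at 12 h (247) and 24 h (339). The highest were 1525, 1141 and 873 with vehicle and 1950, 890 and 1860 with stimulation. For the difference in response the range was 36 to 117, 4 to 83 and 18 to 202, and over time 1268 to 1978 in WT and 889 to 1732 in KO cells. No single library moved the stimulation numbers by over 1.5 times. Read depth is unknown, so its limits could not be given.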
